A study of Mus musculus with 17 samples.

Results

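Interferon-stimulated genes are the genes that cells switch on after an interferon binds its receptor, and 40 of them were followed here among the 37620 genes quantified in cultured mouse macrophages. The list held transcription factors of the pathway, sensors of foreign RNA and DNA, antiviral effectors and membrane or secreted proteins, and members were found by gene symbol. Bone marrow cells of C57BL/6J mice, either Smad3 wild type or Smad3 knockout, were grown with macrophage colony-stimulating factor (M-CSF, 50 ng/ml) for 7 days. Transforming growth factor beta 1 (TGF-β1, 5 ng/ml) was then given for 5 days to follow the macrophage-myofibroblast transition, in which macrophages take on features of contractile, matrix-producing cells. SMART-seq2, a method that copies and amplifies whole transcripts of scarce RNA, was used to make 17 libraries. By their titles 5 were wild-type controls, 5 knockout controls, 4 wild type given TGF-β1 and 3 knockout given TGF-β1. Smad3 is a signal carrier that TGF-β receptors activate. The labels name no promoter, Cre driver, sex or age, do not say how the knockout was made, and tie no library to an animal or a culture. The treatment text is the same on all samples, so groups were read from the titles.

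Type I interferons act through the receptor chains Ifnar1 and Ifnar2, whose kinases Jak1 and Tyk2 pass the signal to transcription factors. Stat2 and Irf9 take part in a complex that binds the interferon-stimulated response element (ISRE) in target promoters. Interferon gamma acts through Ifngr1 and Ifngr2 and a related element, the gamma-activated site (GAS). Macrophages are known to keep a low tonic interferon response at rest and to raise these genes sharply during infection.

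Values are TPM, the length-corrected abundance unit of RSEM, and the total of each library is the same. Levels can therefore be compared between genes, but the number of reads behind a value is unknown. Libraries listed 7269 to 10307 genes at TPM 1 or more. Of the genes that were moderately expressed in the other libraries of its group (mean TPM 10 to 50), a library listed 4.08% to 14.8% at 0, and 6 of 17 libraries exceeded 10%. A member listed at 0 was therefore not taken as absent from the cells. Series text speaks of single-cell sequencing and extraction text of a column kit, so whether a library came from 1 cell or from many could not be told, and in libraries of many cells fewer cells of a type and less RNA per cell cannot be told apart. With no animal or culture named, a p-value reflects just how these libraries varied, and that variation may be technical. Of 8 macrophage markers, Cd68 ranged from 1129 to 4233 TPM, Csf1r from 177 to 1197 and Lyz2 from 4975 to 39900.4, while Mertk was at 0 in 7 libraries and Fcgr1 as low as 0.04 TPM. Smad3 itself did not follow the labels. It was at TPM 1 or more in 2 of 5 wild-type controls (15.4 and 11.5 TPM), 0 of 4 wild-type TGF-β1 libraries, 1 of 5 knockout controls (1.93 TPM) and 2 of 3 knockout TGF-β1 libraries (6.18 TPM in library 1 and 22.3 TPM in library 3, with 0.01 TPM in library 2). On log2(TPM + 1) the knockout controls were lower than the wild-type controls by a difference of -1.16 (two-sided exact permutation p = 0.365, the smallest possible being 0.00794). Under TGF-β1 the libraries labelled knockout were higher by 2.47 (p = 0.0286, the smallest this exact permutation test can give). Group names below are therefore those of the labels only.

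The members fell into a set expressed in every library and a larger set that came and went between libraries. The set expressed throughout held 7 members, at TPM 1 or more in all 17 libraries. These were the RNA sensor Ddx58 (RIG-I), the membrane proteins Ifitm3, which blocks virus entry, Bst2 (tetherin), which holds budding virions at the cell surface, and Ly6e, the secreted galectin-binding glycoprotein Lgals3bp, the interferon-induced protein Ifi35 and the TRIM-family protein Trim30a. Ifitm3 had the highest level of the list, with a median of 611 TPM and a range of 99.9 to 1625. Ly6e and Lgals3bp followed with medians of 189.5 and 191 TPM, and Bst2 with 128 TPM. Another 18 members were at TPM 1 in 9 to 16 libraries, among them Oas1a (median 69.2 TPM) and Ifi27l2a (median 83.2 TPM). Ifih1, Zbp1, Ifit3, Rsad2, Cmpk2, Gbp2 and Gbp3 reached TPM 1 in 3 to 8 libraries. Usp18, Ifit1, Isg20, Mx1 and Cxcl10 did so in 1 or 2 libraries, and Oasl1, Mx2 and Ifi44 in none. C57BL/6 mice are known to carry a disrupted Mx1. These last 8 did not pass the filter of TPM 1 in at least 3 libraries, which left 32 members among 12158 genes for the tests across groups. The members that varied most between libraries on log2(TPM + 1) were Rtp4 (SD 2.94), Ifi27l2a (SD 2.90), Oasl2 (SD 2.88) and Irf7 (SD 2.65), and among the tested members Bst2 varied least (SD 0.80).

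**Figure D1:**
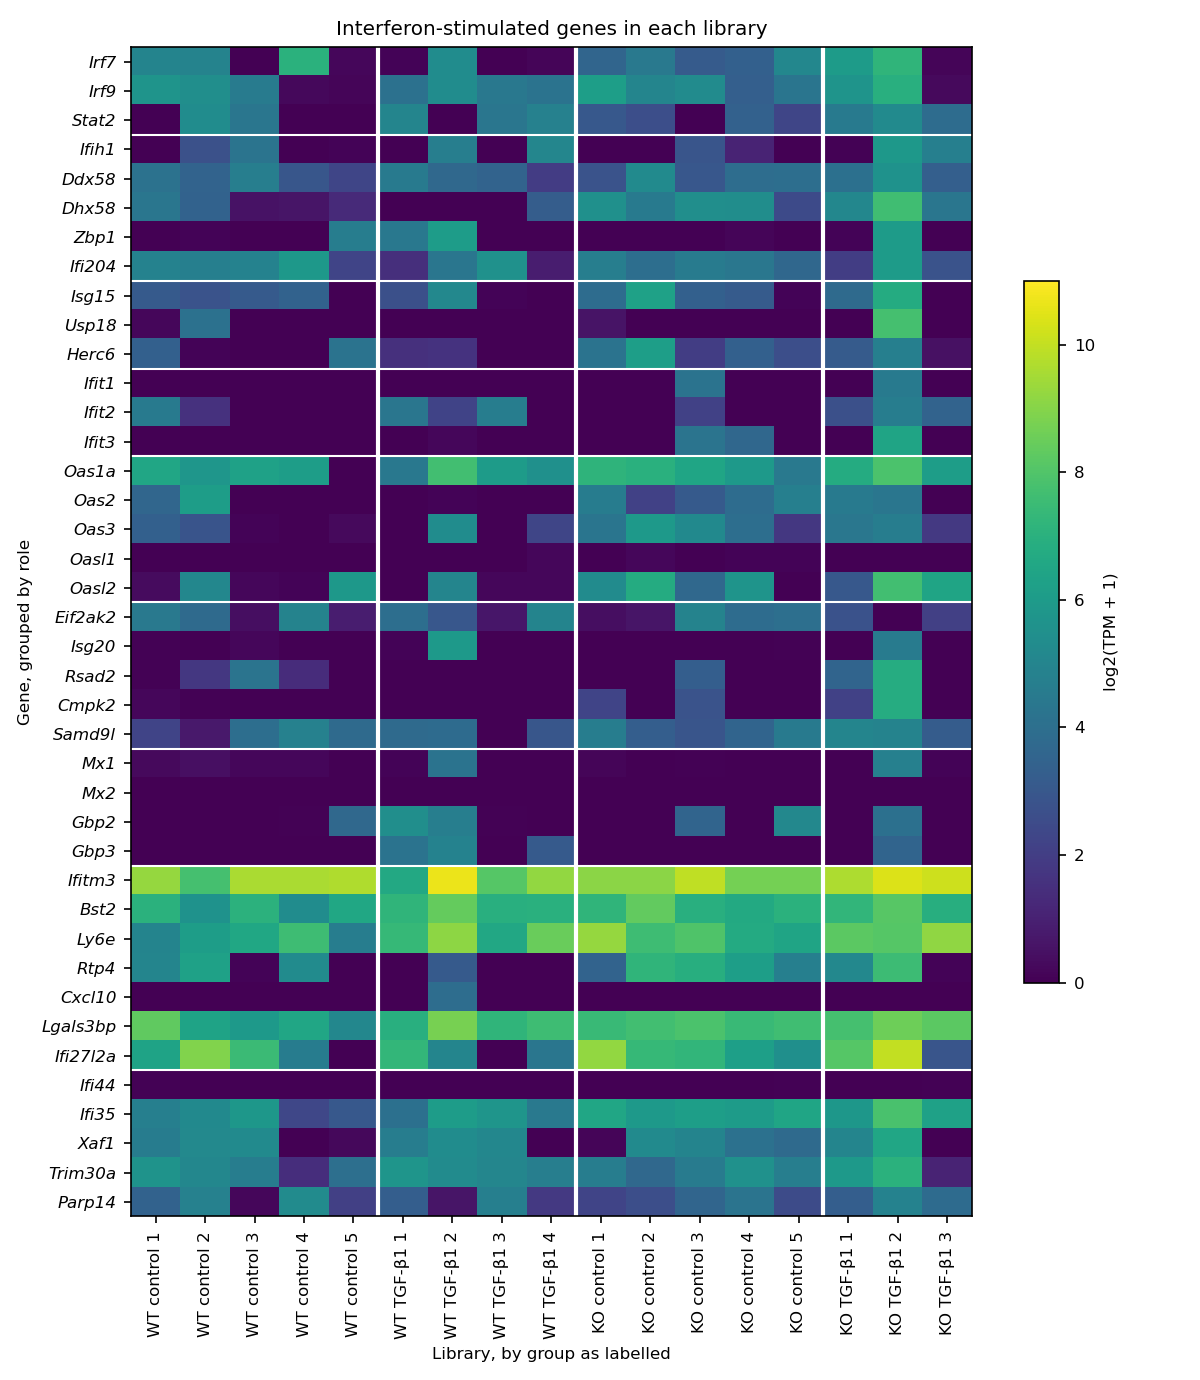
Level of each of the 40 interferon-stimulated genes (rows, grouped by role) in each of the 17 libraries (columns, by labelled group) as log2(TPM + 1). Ifitm3, Ly6e, Lgals3bp and Bst2 are bright in every column, and knockout TGF-β1 library 2 is the column with the most genes above 0.

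A single library stood above all others in its level of the interferon-stimulated genes. Knockout TGF-β1 library 2 had 35 of 40 members at TPM 10 or more. The next library, wild-type TGF-β1 library 2, had 24, and the other 15 libraries had 10 to 20. Its members summed to 6005 TPM, against 3817 TPM in wild-type TGF-β1 library 2 and 967 to 2654 TPM in the others. The mean of log2(TPM + 1) over the 40 members was 5.61 there, 3.74 in wild-type TGF-β1 library 2 and 1.63 to 3.56 in the others. The same mean over all 12158 tested genes was 3.45 in that library, inside the range of 3.16 to 3.92 across the series, and its 8230 genes at TPM 1 lay inside the range given above. It was also 1 of the 6 libraries that listed over 10% of moderate genes at 0 (11.9%).

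By group, the mean over members was 2.44 ± 0.61 (SD, n = 5) in wild-type control, 2.62 ± 0.79 (SD, n = 4) in wild-type TGF-β1, 3.13 ± 0.32 (SD, n = 5) in knockout control and 3.77 ± 1.69 (SD, n = 3) in knockout TGF-β1. The libraries of knockout TGF-β1 stood at 3.39, 5.61 and 2.31, so the group held the highest library of the series as well as one below the knockout control range of 2.67 to 3.56. All 4 group ranges overlapped.

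**Figure D2:**
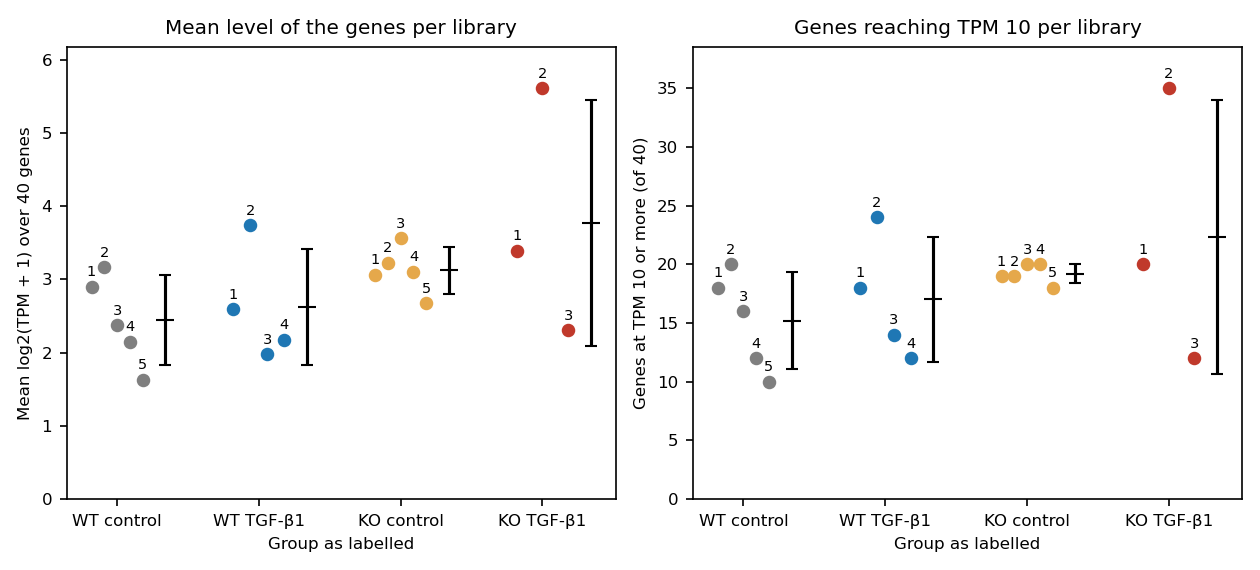
Left, mean log2(TPM + 1) over the 40 genes in each library; right, number of the 40 genes at TPM 10 or more. Points are libraries with their replicate number, and the bar beside each group is mean ± SD (n = 5, 4, 5 and 3); knockout TGF-β1 library 2 lies above all other libraries in both panels (5.61 and 35 genes).

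Of the 32 tested members, 18 had their highest value in knockout TGF-β1 library 2, which is 56.2% of them, while that library held the highest value of 7.50% of all tested genes. Over the 37 members that reached TPM 1 in any library the count was 21, beside 7.01% of the 15113 genes that did so. Wild-type TGF-β1 library 2 held the highest value of 7 of those 37, namely Ifitm3, Bst2, Lgals3bp, Zbp1, Gbp3, Isg20 and Cxcl10, beside 4.18% of genes. Of the 18, 7 were at least 2 times the next library and 4 were at least 4 times, with a median ratio of 1.76. No test was made of this pattern, because the library was singled out by its values.

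**Figure D3:**
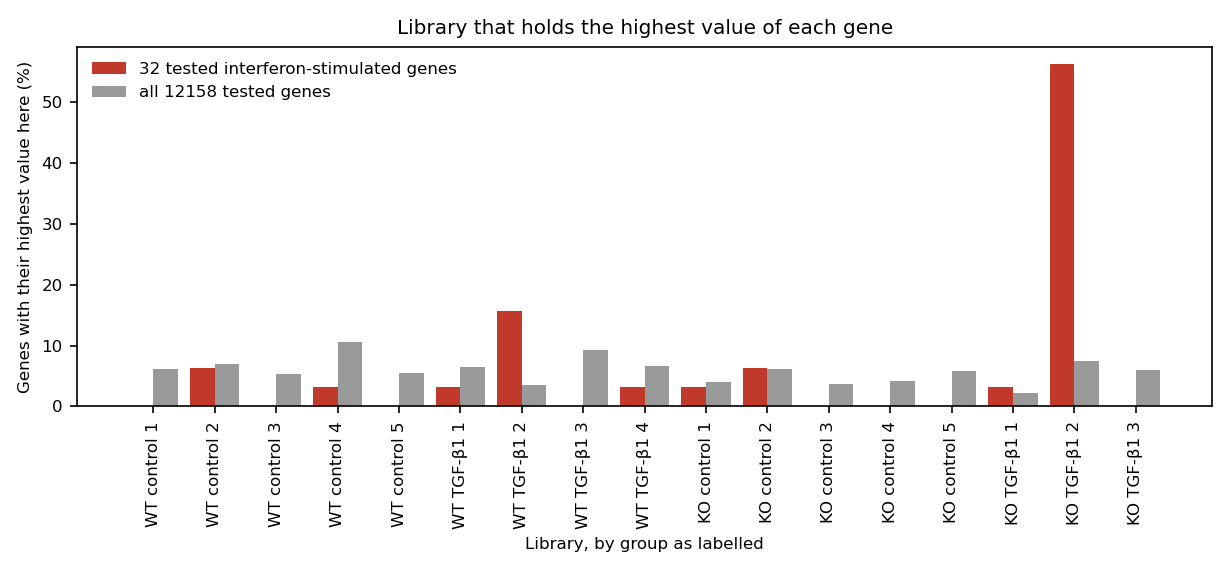
Share of genes whose highest TPM lies in each library (percent), for the 32 tested interferon-stimulated genes (red) and all 12158 tested genes (grey). Knockout TGF-β1 library 2 holds 56.2% of the former and 7.50% of the latter.

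Among the transcription factors, Irf7, which amplifies interferon production, and Irf9 were both highest in that library. Irf7 read 65.1, 147 and 0.12 TPM in the 3 knockout TGF-β1 libraries, and Irf9 51.4, 120.0 and 0.20 TPM. Stat2 was 37.6 TPM there but 39.5 TPM in wild-type control library 2, its highest value. Of the 5 sensors, 4 peaked in the library. Dhx58 (LGP2), a regulator of RIG-I-like receptors, was at 194 TPM, 4.35 times the next library (44.7 TPM). Ifih1 (MDA5), a sensor of long double-stranded RNA, was at 56.7 TPM against 32.1 TPM in the next library. Ddx58 (48.0 against 37.1 TPM) and the DNA sensor Ifi204 (65.4 against 56.5 TPM) were closer to their next libraries. The sensor of Z-form nucleic acids Zbp1 was at 65.6 TPM there and at 67.3 TPM in wild-type TGF-β1 library 2. Apart from these, Zbp1 passed TPM 1 only in wild-type TGF-β1 library 1 (20.3 TPM) and wild-type control library 5 (24.5 TPM).

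The ISG15 system showed a wide contrast between libraries. Isg15, a ubiquitin-like modifier, read 12.8, 107 and 0 TPM in knockout TGF-β1, with 78.6 TPM in knockout control library 2 and 34.1 TPM in wild-type TGF-β1 library 2 as the next values. Usp18, the protease that removes ISG15 and restrains the type I receptor, was at 215 TPM in knockout TGF-β1 library 2, at 16.01 TPM in wild-type control library 2 and at 0.48 TPM or less in the other 15 libraries. Herc6, a mouse ligase for ISG15, was instead highest in knockout control library 2 (70.1 TPM) and read 25.6 TPM in knockout TGF-β1 library 2. Of the IFIT proteins, which bind viral RNA, Ifit3 was listed above TPM 1 in 3 libraries. These were knockout TGF-β1 library 2 with 84.1 TPM and knockout control libraries 3 and 4 with 17.7 and 11.7 TPM. Ifit1 was at 21.8 TPM in the first of these, at 17.03 TPM in the second and at 0.02 TPM or less elsewhere. Ifit2 read 24.7 TPM in knockout TGF-β1 library 2, close to 24.5 TPM in wild-type TGF-β1 library 3.

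The OAS enzymes make the second messenger that activates RNase L. Oas1a was detected in 16 libraries and reached 235 TPM in knockout TGF-β1 library 2 and 204 TPM in wild-type TGF-β1 library 2. Oasl2 was at 199.8 TPM in the former, 1.85 times the next library. Oas2 and Oas3 did not peak there. Oas2 was highest in wild-type control library 2 (69.2 TPM), and Oas3 in knockout control library 2 (61.6 TPM). RSEM divides reads among near-identical copies, so values within the Oas1, Ifit, Gbp, Ifi200 and Trim30 families carry that uncertainty. The paralogue Oas1g was highest in wild-type control library 2 at 100.4 TPM, and Ifit3b in wild-type TGF-β1 library 2 at 17.7 TPM.

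Rsad2 (viperin), which turns CTP into an antiviral chain terminator, and its neighbour on chromosome 12, the mitochondrial nucleotide kinase Cmpk2, had some of the largest ratios. Cmpk2 was at 110.2 TPM in knockout TGF-β1 library 2, 18.4 times the next value of 5.99 TPM in knockout control library 3. Rsad2 was at 111 TPM there, 6.26 times the 17.7 TPM of wild-type control library 3. Isg20, an RNA exonuclease, passed TPM 1 in the 2 highest libraries alone, at 23.2 TPM in knockout TGF-β1 library 2 and 60.9 TPM in wild-type TGF-β1 library 2. Mx1 showed the same pair with 26.7 and 17.4 TPM, and 0.37 TPM or less elsewhere. Gbp3, one of the guanylate-binding GTPases that act on microbe-containing vacuoles, was at 10.5 TPM in the former and 28.1 TPM in the latter, and otherwise above 0 only in wild-type TGF-β1 libraries 1 and 4 (17.3 and 7.54 TPM). Eif2ak2 (PKR), the kinase that halts translation on double-stranded RNA, went the other way, with 0.01 TPM in knockout TGF-β1 library 2, the lowest of the 17 libraries. The chemokine Cxcl10 was listed at 0 there and in 15 other libraries, with 14.4 TPM in wild-type TGF-β1 library 2.

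Among membrane and other proteins, Ifi27l2a reached 1025 TPM in that library against 586 TPM in knockout control library 1. Ifi35 stood at 229.6 TPM against 91.2 TPM, Xaf1, an antagonist of the apoptosis inhibitor XIAP, at 90.4 against 39.7 TPM, and Trim30a at 128 against 60.8 TPM. Rtp4 was at 186 TPM against 147 TPM in knockout control library 2. Ly6e was not high there, with 275 TPM beside 303 and 578 TPM in the other knockout TGF-β1 libraries.

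Promoter sequence is shown for 5 members, all of which had their highest value in knockout TGF-β1 library 2. Isg15 and Oas1a were expressed in most libraries, while Ifit3, Rsad2 and Cmpk2 were far highest in that library. Members that peaked elsewhere are not shown. Each line gives the 250 bases before the RefSeq start site on the gene's strand in GRCm38.p6, and capitals mark matches to the ISRE core GAAANNGAAA on either strand.
Isg15: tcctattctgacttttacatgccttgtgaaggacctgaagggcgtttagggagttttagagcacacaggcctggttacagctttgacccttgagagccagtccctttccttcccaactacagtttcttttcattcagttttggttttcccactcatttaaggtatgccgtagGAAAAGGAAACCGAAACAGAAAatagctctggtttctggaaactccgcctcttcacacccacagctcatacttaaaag
Oas1a: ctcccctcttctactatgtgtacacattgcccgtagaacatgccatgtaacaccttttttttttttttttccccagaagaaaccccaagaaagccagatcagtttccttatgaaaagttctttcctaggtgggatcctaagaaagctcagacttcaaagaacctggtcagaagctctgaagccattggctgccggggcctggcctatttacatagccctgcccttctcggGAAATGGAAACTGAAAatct
Ifit3: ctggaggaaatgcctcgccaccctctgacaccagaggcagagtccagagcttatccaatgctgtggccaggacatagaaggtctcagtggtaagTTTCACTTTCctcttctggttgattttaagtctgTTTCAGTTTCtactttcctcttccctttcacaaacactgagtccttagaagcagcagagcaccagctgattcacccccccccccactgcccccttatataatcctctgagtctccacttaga
Rsad2: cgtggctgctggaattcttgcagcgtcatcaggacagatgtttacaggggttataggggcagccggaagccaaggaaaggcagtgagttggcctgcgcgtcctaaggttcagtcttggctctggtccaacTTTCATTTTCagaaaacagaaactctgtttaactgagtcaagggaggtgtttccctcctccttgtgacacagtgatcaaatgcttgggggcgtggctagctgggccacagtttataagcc
Cmpk2: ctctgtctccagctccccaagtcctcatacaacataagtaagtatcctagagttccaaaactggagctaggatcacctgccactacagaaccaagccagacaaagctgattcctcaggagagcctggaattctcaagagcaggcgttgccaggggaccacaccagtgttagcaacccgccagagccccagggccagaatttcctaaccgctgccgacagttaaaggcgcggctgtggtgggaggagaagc

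These windows lie at chr4:156200819-156201068 on the minus strand (Isg15), chr5:120907526-120907775 on the minus strand (Oas1a), chr19:34583279-34583528 on the plus strand (Ifit3), chr12:26456453-26456702 on the minus strand (Rsad2) and chr12:26468965-26469214 on the plus strand (Cmpk2). Isg15 carried 3 overlapping matches from -78 to -57 relative to the start site, Oas1a 2 overlapping matches from -20 to -5, Ifit3 2 separate ones at -156 to -147 and -122 to -113, and Rsad2 a single match at -120 to -111. Cmpk2 had no match in its window. RefSeq promoter windows of 300 bases, which add the 50 bases after the start site, were matched for 29 of the 40 members. The ISRE core was found on either strand in 16 of these 29 (55.2%) and in 3.99% of 27025 genes. The GAS core TTCNNNGAA was found in 7 of the 29 (24.1%) and in 9.55% of genes, and its matches shared bases with ISRE matches in Bst2 and Ifitm3. Counting each member once over its windows, 7 of the 14 tested members that peaked in knockout TGF-β1 library 2 held the ISRE core. Of the other 15 members 9 held it. These included Ifit1, which also peaked in that library but was not tested. A match describes letters in the window and does not show binding.

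Upstream of these genes, no transcript was listed for the interferon genes that could be matched. Ifna1, Ifna5 and Ifnab were not matched, so the alpha interferons were covered by Ifna2 and Ifna4 alone. Of 11 interferon genes looked for, 8 were matched by symbol, Ifnb1 and Ifng among them, and all 8 were listed at 0 in each of the 17 libraries. The receptor chains Ifnar2, Ifngr1 and Ifngr2 were at TPM 1 or more in all 17 libraries and Ifnar1 in 16, while the interferon lambda receptor Ifnlr1 was at 0.05 TPM or less. Ifnar2 ranged from 75.8 to 306 TPM, Ifngr2 from 87.8 to 290.4 TPM and Ifngr1 from 2.14 TPM to 250.4 TPM, the last in knockout TGF-β1 library 2. Ifnar1 was at 32.5 TPM or more in all controls. In wild-type TGF-β1 it read 48.8, 21.5, 0.27 and 24.2 TPM, a difference of -2.22 from wild-type control on log2(TPM + 1), which did not pass the test (limma adjusted p = 0.311). Irf1, a factor that both interferon classes induce, read 168 TPM in knockout TGF-β1 library 2, while the highest value elsewhere was 54.6 TPM.

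The elevation in knockout TGF-β1 library 2 extended to related genes outside the list. Of 54 other tested genes known to respond to type I interferon, 15 were highest in that library, among them Sp100 (485 TPM, next 213 TPM), Lgals9 (627 TPM, next 466 TPM) and Ifi203 (135 TPM, next 53.8 TPM). Of 11 tested genes associated with interferon gamma, 7 peaked there too, beside the 7.50% of all tested genes. Irgm1, an immunity-related GTPase, was at 312 TPM (next 174 TPM), Ifi47 at 218 TPM (next 35.9 TPM) and Tgtp2 at 56.8 TPM (next 12.2 TPM). Few markers of other cell types moved with it. Neutrophil and mast cell lists summed to 0 TPM in that library, the conventional dendritic cell list to 0.19 TPM and the T and NK cell list to 0.24 TPM. Summed over 8 plasmacytoid dendritic cell markers, that library read 285 TPM within a series range of 39.7 to 357 TPM. Bst2, itself a member, made up 279 TPM of this, and Siglech was at 0.20 TPM or less in all 17 libraries. B-cell and fibroblast lists summed to 0.26 TPM or less in every library. The 6 erythroid markers summed to 4.64 TPM in that library, all of it Hbb-bt, against 0 to 2.10 TPM elsewhere. Cd4 at 52.3 TPM in knockout TGF-β1 library 3, Kit at 11.01 TPM in knockout control library 4, S100a8 at up to 132 TPM in 3 control libraries and Xcr1 at 4.35 and 5.20 TPM in 2 libraries were further markers. Kdr, an endothelial marker, was at TPM 1 or more in 10 of 17 libraries, up to 27.1 TPM. Their part in any result was not tested.

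The effect of TGF-β1 in wild-type macrophages was the first comparison. No member passed the test (limma, adjusted p under 0.05), where 0.107% of genes were called higher and 0.074% lower. The members' median difference was 0.15 on log2(TPM + 1), beside 0.09 for all genes, and 17 of 32 were higher, which is 53.1% beside 53.8% of genes. At an unadjusted p under 0.05, 4 members were higher (12.5%, beside 6.70% of genes) and 0 lower (beside 3.27%). The 4 were Gbp3, Ly6e, Lgals3bp and Bst2. Without the 6 libraries that listed over 10% of moderate genes at 0, the member median was -0.32, beside 0 for all genes. In that setting 4 members were higher and 3 lower at the same unadjusted threshold (share of all genes not counted). Groups did not overlap, with TGF-β1 above, in 0 members beside 1.80% of genes.

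Gbp3 had the smallest adjusted p of the list. It was listed at 0 in the 5 wild-type controls and at 17.3, 28.1, 0 and 7.54 TPM with TGF-β1, a difference of 3.04 ± 0.84 (SE; limma adjusted p = 0.159). Of the 4 treated libraries, 3 stood above all controls and the other did not. Without wild-type TGF-β1 library 3, the one at 0, the adjusted p was 0.0160 and the difference 4.05, so the call depended on that library. Ly6e read 29.8, 68.0, 93.6, 189.5 and 24.1 TPM in controls and 164, 565, 96.1 and 353 TPM with TGF-β1 (difference 1.93 ± 0.65, adjusted p = 0.302). Its groups overlapped through the control at 189.5 TPM. Gbp2 read 0, 0, 0.02, 0.06 and 12.1 TPM against 42.9, 25.4, 0.06 and 0 TPM (difference 1.80 ± 1.41, adjusted p = 0.737), and its difference was 0.84 without wild-type TGF-β1 library 1. The largest negative values belonged to Rtp4, Irf7 and Oas2. Rtp4 read 31.2, 76.9, 0.07, 38.4 and 0 TPM in controls and 0, 7.63, 0 and 0.03 TPM with TGF-β1 (difference -2.55 ± 1.52, adjusted p = 0.620). Irf7 stood at 30.6, 29.7, 0, 129.6 and 0.14 TPM against 0.09, 39.7, 0 and 0.10 TPM (difference -2.03 ± 1.60, adjusted p = 0.740; -1.13 without wild-type control library 4). In both genes 3 of 4 treated libraries were near 0, as were 2 of 5 controls. Oas2 passed TPM 1 in 2 of 5 controls (11.5 and 69.2 TPM) and in no treated library, the highest being 0.07 TPM (difference -1.93 ± 1.27, adjusted p = 0.671). Without wild-type control library 2, where it was 69.2 TPM, the difference was -0.89.

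In macrophages labelled knockout, TGF-β1 again gave 0 members past the threshold, where 0% of genes were called higher and 0.00823% lower. The median difference was 0.55, beside 0.07 for all genes, and 23 of 32 members were higher (71.9%, beside 53.1%). This rested on knockout TGF-β1 library 2. Without it the median was -0.13, beside 0.20 for all genes, and 14 of 32 members were higher (share of all genes not counted). At an unadjusted p under 0.05, 2 members were higher (6.25%, beside 3.73% of genes) and 0 lower (beside 2.20%). Without library 2 these counts were 0 and 0 (share of all genes not counted). Ifit2 was listed at 0 in 4 of 5 knockout controls and at 3.41 TPM in the other, and read 5.43, 24.7 and 10.2 TPM with TGF-β1 (difference 3.19 ± 1.20, limma adjusted p = 0.736). Its groups did not overlap. Stat2 was the other member without overlap, at 0 to 9.74 TPM in controls and 13.8 to 37.6 TPM with TGF-β1 (difference 2.26, adjusted p = 0.882). That made 2 of 32 members (6.25%), beside 3.05% of genes, counting only genes with TGF-β1 above. Rsad2 read 0, 0, 8.74, 0.01 and 0 TPM against 10.7, 111 and 0 TPM (difference 2.79 ± 1.22, adjusted p = 0.794), and 1.116 without library 2. Ifih1 stood at 0, 0, 6.53, 1.15 and 0 TPM against 0.05, 56.7 and 26.2 TPM (difference 2.76 ± 1.5, adjusted p = 0.854), and 1.61 without library 2. In each of these genes 2 treated libraries were high and the remaining one was at or near 0.

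The lowest differences in that comparison were those of Rtp4, Eif2ak2 and Herc6, with none past the test. Rtp4 read 10.4, 147, 118, 70.4 and 25.8 TPM in knockout controls and 34.5, 186 and 0.07 TPM with TGF-β1 (difference -1.44 ± 1.66, limma adjusted p = 0.968). Without library 3 the difference was 0.65. Herc6 read 17.3, 70.1, 3.04, 9.45 and 5.31 TPM against 8.03, 25.6 and 0.41 TPM (difference -0.88 ± 1.28, adjusted p = 0.983), and was 0.28 without the same library. Eif2ak2 was at 0.31 to 29.5 TPM in controls and at 5.87, 0.01 and 3.20 TPM with TGF-β1 (difference -1.15 ± 1.41, adjusted p = 0.972).

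Whether the TGF-β1 effect differed between genotypes was tested as an interaction. No member and 0% of genes passed, in either direction (limma). At an unadjusted p under 0.05, 1 member, Rsad2, was higher (3.12%, beside 2.25% of genes) and 0 lower (beside 2.43%). Without knockout TGF-β1 library 2 these counts were 0 higher and 1 lower, Gbp3 (share of all genes not counted). For Rsad2 the effect in knockout exceeded that in wild type by 4.28 ± 1.66 (adjusted p = 0.997), and by 2.61 without knockout TGF-β1 library 2. Irf7 (2.57 ± 2.37) and Oasl2 (2.37 ± 2.36) followed, with 1.20 and 1.39 without that library. Oasl2 was 1.29 without knockout control library 5. On the negative side stood Gbp2 (-2.17 ± 2.08), Gbp3 (-1.86 ± 1.24) and Irf9 (-1.81 ± 1.95; 0.21 without knockout TGF-β1 library 3). Without knockout TGF-β1 library 2 these were -3.53, -3.04 and -3.12. With all libraries each of these 5 had an adjusted p of 0.997 as well. The median over members was 0.64, beside -0.04 for all genes, with 19 of 32 positive (59.4%, beside 48.7% of genes). When knockout TGF-β1 library 2 was left out, the member median turned to -0.56, beside 0.07 for all genes. In that setting 12 of 32 members were positive (share of all genes not counted).

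Between untreated genotypes, members tended to read higher in the libraries labelled knockout, with 0 past the threshold, where 0.0823% of genes were called higher and 0.0658% lower. The median difference was 0.89, beside 0.11 for all genes, and 23 of 32 members were higher (71.9%, beside 55.6%). At an unadjusted p under 0.05, 5 members were higher (15.6%, beside 3.90% of genes) and 0 lower (beside 1.92%), namely Ifi35, Ly6e, Lgals3bp, Dhx58 and Oas3. Ifi35 was the 1 member whose groups did not overlap (3.12%, beside 0.683% of genes, counting only genes with knockout above). It read 26.1, 35.8, 56.2, 4.0 and 7.06 TPM in wild type and 91.2, 59.0, 70.5, 63.9 and 87.2 TPM in knockout (difference 1.99 ± 0.67, limma adjusted p = 0.605). Dhx58 read 19.2, 9.95, 0.47, 0.54 and 1.51 TPM against 44.7, 22.5, 42.2, 41.1 and 4.60 TPM (difference 2.62 ± 1.05, adjusted p = 0.760). Of the 5 knockout libraries, 4 were above all wild-type ones. Oas3 was at 9.51, 6.19, 0.09, 0 and 0.23 TPM against 18.3, 61.6, 36.6, 14.7 and 2.42 TPM (difference 2.91 ± 1.18, adjusted p = 0.766), with the same count above. Ly6e had a difference of 1.63 (adjusted p = 0.734), and Lgals3bp of 1.18 (adjusted p = 0.757). Rtp4 differed by 2.36 ± 1.43 (adjusted p = 0.908). Of the wild-type controls 3 of 5, and of the knockout controls 1 of 5, were among the libraries with over 10% of moderate genes at 0. Without all such libraries, which leaves 2 wild-type and 4 knockout controls, the median over members was -0.12 and the difference of Rtp4 was -0.32. With a covariate for how many genes each library detected, the median was 1.00, beside -0.04 for all genes. Without wild-type control library 5 alone it was 0.34. At an unadjusted p under 0.05, 2 members were higher and 0 lower with that covariate (share of all genes not counted). The same counts held without all libraries over the 10% limit. The lowest differences were those of Zbp1 (-0.92), Rsad2 (-0.84), Ifit2 (-0.79) and Ifih1 (-0.61), which had a mean under TPM 10 in both groups and were named after their values were seen. Among members with a mean of TPM 10 or more in either group, the lowest were Ifi204 (-0.26 ± 0.99), Eif2ak2 (-0.13 ± 1.22) and Parp14 (-0.12 ± 1.04), which were small beside their errors and changed sign under some alternatives.

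With TGF-β1 in both genotypes, the libraries labelled knockout again had 0 members past the threshold, where 0.0987% of genes were called higher and 0.0576% lower. Their median difference was 1.25, beside 0.06 for all genes, and 26 of 32 members were higher (81.2%, beside 52.9%). Without knockout TGF-β1 library 2 the median was 0.59, beside 0.18 for all genes, and 20 of 32 were higher. The share of all genes that were higher was not counted in that setting. At an unadjusted p under 0.05, 5 members were higher (15.6%, beside 3.21% of genes) and 0 lower (beside 2.04%). The 5 were Dhx58, Cmpk2, Rsad2, Oasl2 and Ifitm3. Without knockout TGF-β1 library 2 these counts were 1 higher (Dhx58) and 1 lower (Gbp3). Without the 6 libraries that listed over 10% of moderate genes at 0 they were 1 higher and 2 lower. Shares of all genes were not counted in either setting. Dhx58 read 0, 0, 0 and 8.60 TPM in wild type and 33.6, 194 and 19.1 TPM in knockout (difference 4.87 ± 1.27, limma adjusted p = 0.265). All 3 knockout values were above all 4 wild-type values, and the difference was 3.90 without library 2. Cmpk2 was listed at 0 in the 4 wild-type libraries and read 3.35, 110.2 and 0.03 TPM in knockout (difference 2.99, adjusted p = 0.743). These were the 2 members without overlap (6.25%, beside 3.15% of genes, counting only genes with knockout above). The lowest Cmpk2 value was close to 0. Without library 2 its difference was 1.08. Oasl2 stood at 0.03, 30.7, 0.13 and 0.16 TPM against 7.13, 199.8 and 84.1 TPM (difference 4.34 ± 1.82, adjusted p = 0.875). Rsad2 differed by 3.45 (adjusted p = 0.772) and by 1.77 without library 2. Rtp4 differed by 3.48 ± 1.73 (adjusted p = 0.969) and by 1.84 without it. Ifitm3 read 99.9, 1625, 273 and 586 TPM against 805, 1370.3 and 1158 TPM (difference 1.43, adjusted p = 0.937).

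The guanylate-binding genes and Eif2ak2 had the lowest differences under TGF-β1. Gbp3, at 17.3, 28.1, 0 and 7.54 TPM in wild type, read 0, 10.5 and 0 TPM in knockout (difference -1.86 ± 0.95, limma adjusted p = 0.980). Without knockout TGF-β1 library 2 its difference was -3.04 (adjusted p = 0.503), with both remaining knockout libraries at 0. Gbp2 (-1.20 ± 1.60) and Eif2ak2 (-1.53 ± 1.47) each had an adjusted p of 1, and were -2.55 and -0.73 without that library.

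**Figure D4:**
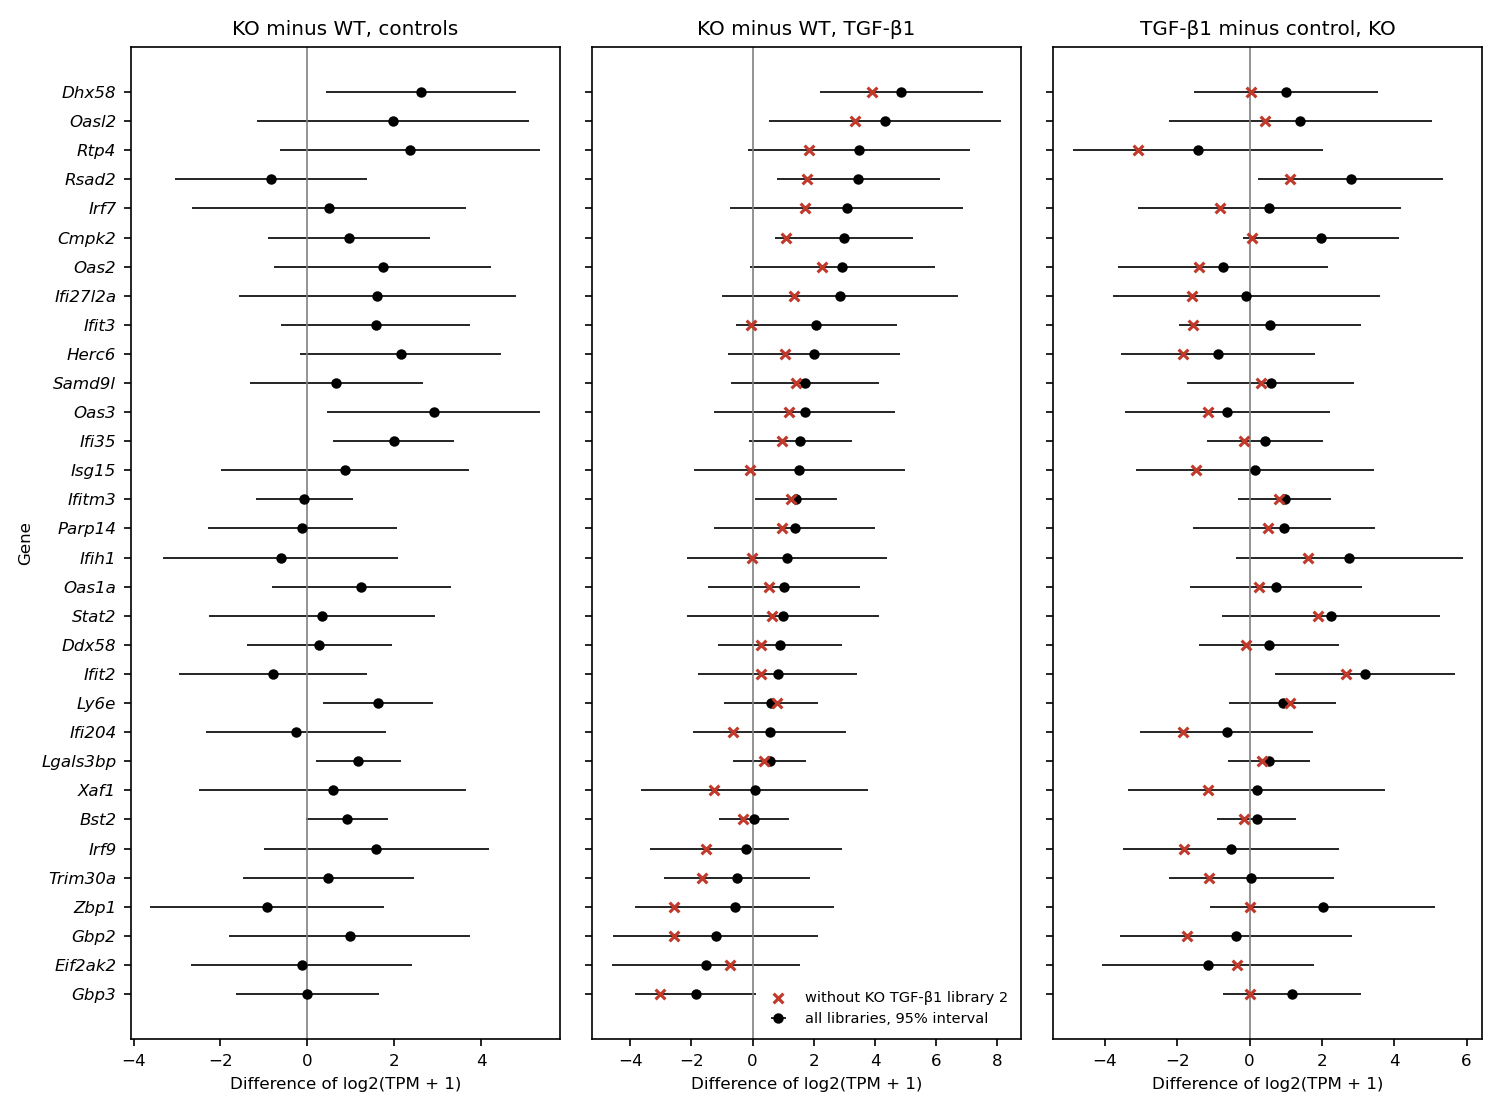
Difference of log2(TPM + 1) for the 32 tested genes in 3 comparisons, with 95% intervals from limma (black), ordered by the middle panel. Red crosses give the values without knockout TGF-β1 library 2; in the middle and right panels many of them move toward or below 0, while Dhx58 stays at 3.90 in the middle panel.

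The control and TGF-β1 comparisons of genotype share no library. Of the 32 members, 20 were higher in knockout in both (62.5%), beside 30.2% of all genes, and 2 were lower in both (6.25%), beside 21.4%. Without knockout TGF-β1 library 2 the count was 16 (50.0%), and the share of all genes was not counted in that setting. The control side also depended on the libraries with over 10% of moderate genes at 0. Without those, the member median between control genotypes was -0.12 and the difference of Rtp4 was -0.32. Among the 20 were Dhx58 (2.62 and 4.87), Rtp4 (2.36 and 3.48) and Oasl2 (1.97 and 4.34). Since Smad3 transcripts were found in libraries labelled knockout, these differences are between labels and not between known Smad3 states. None of the tested genes of the receptor and JAK-STAT list (10), the sensing list (18), the other regulatory factors (3), the brakes on signalling (8), the other type I list (54) or the gamma list (11) passed the test in any of the 5 comparisons, in either direction. Their smallest limma adjusted p was 0.180, for the DNA-sensing adaptor Tmem173 (STING) with TGF-β1 in wild type (difference 4.40), where controls read 61.6, 0.13, 0.03, 0.06 and 4.86 TPM and treated libraries 105, 45.0, 50.8 and 104 TPM. Tmem173 was above 40 TPM in all 4 treated libraries and in 1 of 5 controls.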

How the data were processed

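RNA of 17 libraries was sequenced after SMART-seq2 amplification, per the labels' protocols. Per the submitters' processing notes, FastQC, Trim Galore and RSEM were used with build mm9; their versions were not given in those notes. The authors deposited 1 table of TPM for 37620 Ensembl gene IDs, each library summing to 1000000. Symbols came from a GENCODE vM21 names table (32897 IDs matched). TPM keeps no read depth, so no counting interval could be given, and RSEM's sharing of reads among similar genes affects gene families.

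Here log2(TPM + 1) was fitted with limma 3.58.1 (R 4.3.3; lmFit, eBayes with trend) over the 4 groups for the 12158 genes that reached TPM 1 in 3 or more libraries, with Benjamini-Hochberg adjustment over all of them and calls at 0.05. The step was tested on simulated data. Smad3 was compared by exact permutation. Same-numbered libraries did not deviate together (correlations -0.08 to 0.02 over 22 pairs), so no block was used. The highest correlation between libraries was 0.81, so none was a duplicate. Promoter windows are from RefSeq (GRCm38.p6). Members named in each comparison were up to 3 with the largest differences in each direction among those with a mean of TPM 10 or more in 1 of the compared groups, plus the 8 highest in mean level and 8 most variable; others named were chosen after their values were seen. Members and gene lists were chosen with earlier results of these data known. The design text's sort by smooth muscle actin was not analysed here, since no label maps it to libraries. Alternatives covered the pseudocount, the filter, normalization, a replicate block, detected genes as a covariate, the groups fitted and leaving out libraries.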

Additional observations from a re-analysis of the deposited data

Results flagged for a closer look

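In 79 checks of the 26 named genes and of the members' mean, within groups of 4 or 5 libraries, a single library lay far from the rest in 14. All of these were checks of genes. Chance gives about 1 in 20, but some of these genes were chosen as the most variable and many values are at 0, so the count is not read as a result about the members. In wild-type control, Gbp2 at 12.1 TPM and Zbp1 at 24.5 TPM were high in library 5 while the other 4 libraries reached 0.06 and 0.07 TPM. Oas1a was at 0.03 TPM in the same library, against 54.4 to 88.8 TPM in the others, and Ifitm3 was low in library 2 at 213 TPM, against 611 to 831 TPM. In wild-type TGF-β1, library 2 was high for Irf7 (39.7 TPM), Oasl2 (30.7 TPM) and Rtp4 (7.63 TPM), where the others reached 0.10, 0.16 and 0.03 TPM. Library 4 of that group was high for Dhx58 (8.60 TPM, the others at 0) and low for Xaf1 (0 TPM, against 24.0 to 39.7 TPM). Rsad2 at 0.01 TPM in library 1 stood out only because the others were at 0. In knockout control, library 3 was high for Ifit2 (3.41 TPM, the others at 0) and Rsad2 (8.74 TPM, the others at 0.01 TPM or less). Xaf1 was low in library 1 of that group (0.10 TPM, against 12.8 to 37.0 TPM), and Zbp1 at 0.12 TPM in library 4 was near the 0 of the others. The knockout TGF-β1 group, with 3 libraries, was too small for this check.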

How the results depend on the processing

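Leaving out 1 library at a time, the count of genes called ranged from 14 to 34 for TGF-β1 in wild type (22 with all libraries), 0 to 10 in knockout (1), 0 to 1 for the interaction (0), and 12 to 21 for genotype under TGF-β1 (19). Members called stayed at 0 throughout except for Gbp3 in wild type, for which the range was 0 to 1, and the interaction median ranged from -0.56 to 1.30. With no filter on low values the counts were 6, 5 and 1 for the first 3 comparisons. With the replicate number as a block, although the numbers did not pair the libraries, they were 11 for TGF-β1 in wild type, 0 in knockout and 10 for genotype under TGF-β1. Fitting the compared groups only gave 5, 0 and 3. Without the 6 libraries with many zeros, counts were 5, 0 and 7, and 8 for genotype in controls (18), whose member median became -0.12. For TGF-β1 in knockout the count was 0 with a pseudocount of 0.1, 4 with 10, 0 at TPM 5 or more, 6 after quantile normalization and 0 with detected genes as a covariate. Of 804 values of 30 named differences, 786 kept their direction and side. Part of that count was fixed in advance, since leaving out a library outside the compared groups, or fitting those groups alone, cannot change a difference. None of the 30 passed the test with all libraries, so the count is not read as a measure of stability. Signs turned for TGF-β1 in knockout in Rtp4 (-3.08 to 0.65 leaving out libraries) and Herc6 (-1.84 to 0.28) and for the interaction in Irf9 (-3.12 to 0.21), each positive without knockout TGF-β1 library 3. For genotype in controls they turned in Rtp4 without the libraries with many zeros (-0.32), in Ifi204 (0.13 with detected genes as a covariate; -0.82 to 0.074 leaving out libraries), in Parp14 (0.26 with a pseudocount of 0.1, 0.22 with the covariate; -0.87 to 0.42) and in Eif2ak2 (-0.75 to 0.46). The cause was not tested. Quantile normalization moved the median of all genes from 0.09 to -0.06 for TGF-β1 in wild type and from 0.11 to -0.004 for genotype in controls, and the member medians from 0.15 to 0.02 and from 0.89 to 0.63. The smallest adjusted p of any member, over all alternatives, ranged from 0.0160 to 0.444 for TGF-β1 in wild type and from 0.112 to 0.789 for genotype under TGF-β1. Depth is unknown in TPM, so how far sampling limits members near 0 could not be measured.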
